A study of Mus musculus with 10 samples.

Results

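Paneth cells sit at the base of the small intestinal crypt and store antimicrobial proteins in large secretory granules. The 10 genes described here encode proteins of these granules or proteins secreted with them: the lysozyme Lyz1, the alpha-defensins Defa21, Defa22, Defa24 and Defa26, the protease Mmp7, the ribonuclease Ang4, the lectins Itln1 and Mptx2, and the colipase Clps. They were taken by symbol from the array annotation, with the probe set of highest mean for each gene, and make up 10 of the 22180 genes measured. The data are log2 intensities from 10 arrays. Of these, 6 came from C57BL/6J mice that carry Lgr5-EGFP-IRES-creERT2, a green reporter and an inducible Cre at the stem cell gene Lgr5, and hold the cells with high GFP from that reporter, named Lgr5-high below. The other 4 are named for Flattop (gene Cfap126) and hold sorted crypt cells from FltpT2AiCre mice crossed with the Gt(ROSA)26mTmG membrane colour reporter on a mixed C57BL/6J, CD1 and 129/SvJ background. All mice were 3 to 6 months old, and no drug or other exposure is named for either group. A Cre-driven membrane reporter marks a cell and its descendants, so it need not report Flattop at the moment of sorting. Group, genotype and strain coincide and cannot be told apart. The labels do not say whether the replicates came from separate animals, so the spread behind each p-value may be technical.

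Alpha-defensins are small cationic peptides that damage bacterial membranes. In the mouse they are made as inactive precursors and cut to the active form by matrilysin, the product of Mmp7. Lysozyme digests bacterial cell walls, and its gene is a common marker of mature Paneth cells. The mouse alpha-defensin genes form a cluster of near-identical copies, and the content of that cluster differs between mouse strains. A probe set named for a copy may therefore detect transcripts of several copies, and every alpha-defensin value below is uncertain as to the copy measured.

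The promoters of Defa21, Defa22, Defa35, Mmp7 and Lyz1 are shown because they let the copies that behaved alike on the arrays be compared with a further alpha-defensin and with 2 granule genes outside the cluster. Each line gives the bases directly before the RefSeq gene start (GRCm38.p6), 5′ to 3′ on the gene's strand. Capitals mark CTTTGAT, here present as its reverse complement, and TATAAA, the TATA box sequence. CTTTGAT is recognised by the TCF factors that carry the Wnt signal to DNA. The search for these motifs reached further from the start than the bases printed, so sites beyond them do not appear here.
Defa21, chr8:21025430-21025544, plus strand: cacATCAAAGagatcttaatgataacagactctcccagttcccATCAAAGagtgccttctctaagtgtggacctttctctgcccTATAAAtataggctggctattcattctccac
Defa22, chr8:21162162-21162276, plus strand: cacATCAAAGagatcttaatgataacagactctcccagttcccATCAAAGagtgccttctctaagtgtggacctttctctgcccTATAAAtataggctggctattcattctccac
Defa35, chr8:21064923-21065037, plus strand: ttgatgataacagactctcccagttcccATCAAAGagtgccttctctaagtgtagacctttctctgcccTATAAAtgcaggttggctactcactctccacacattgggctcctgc
Mmp7, first of 2 starts, chr9:7691975-7692089, plus strand: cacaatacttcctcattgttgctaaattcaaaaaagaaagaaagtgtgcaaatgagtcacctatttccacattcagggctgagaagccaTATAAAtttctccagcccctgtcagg
Lyz1, chr10:117292869-117292983, minus strand: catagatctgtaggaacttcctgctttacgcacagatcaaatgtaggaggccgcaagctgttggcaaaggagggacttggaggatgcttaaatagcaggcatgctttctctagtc

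Over the 250 bases before the start, Defa21 and Defa22 had 100% identity, whereas either of them aligned with the other alpha-defensins of the table at 66% to 98% (median 79.6%, 28 pairs). Identity here is matching bases out of all 250, so ends left unaligned by a shifted start count as mismatches and lower it. Of all 120 pairs among the 16 alpha-defensin promoters of the table, 5 were identical. In Defa21 and Defa22, CTTTGAT lay 112 and 72 bases before the start and TATAAA 31 bases before it. In Defa35, CTTTGAT lay 127 and 87 bases before the start and TATAAA 46 bases before it, and the site at 127 is not printed. The first Mmp7 start had TATAAA at 123, also not printed, and at 26 bases before it. The second Mmp7 start, whose promoter is not printed, had CTTTGAT 247 bases before it. The search covered both strands of 250 bases and 2 TCF sequences, CTTTGAT and CTTTGAA, and the motifs do not overlap in these promoters. CTTTGAT was found in 13 of 16 alpha-defensin promoters (81.3%) and in 3.21% of the 32851 mouse promoters of the table. CTTTGAA was found in 0 of the 16 and in 4.46% of all promoters. TATAAA was found in 15 of the 16, against 12.4% of all. The promoter table holds 7 of the 10 genes, and those of Defa24, Defa26 and Clps are not shown. A match describes these letters only.

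All arrays had medians between 4.56 and 4.77, and the highest value on an array was 13.93 to 14.12. Pairs of arrays correlated at 0.869 to 0.941 in Flattop and 0.854 to 0.915 in Lgr5-high, and pairs across groups at 0.825 to 0.931. Detection calls were not used here. For a scale of dim values, the 1394 olfactory and vomeronasal receptor genes, which the gut is not known to use as a class, had 95th percentiles of 4.90 to 5.50 on the 10 arrays. Probes differ in brightness, so this is a rough guide.

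Paneth granule genes were higher in Flattop than in Lgr5-high arrays. For each of the 10 genes the lowest Flattop array lay above the highest Lgr5-high array, where 2.01% of all genes showed this pattern. Of the 10, 6 rose in limma at an adjusted p of 0.05 over all genes (Itln1, Defa26, Clps, Mptx2, Defa24 and Lyz1), against 0.902% of all genes called higher, and 4 did not pass (Defa21, Defa22, Mmp7 and Ang4). The median difference, Flattop minus Lgr5-high, was 3.38 on the log2 scale, beside a median of -0.06 over all genes tested. In these sorted pools, more Paneth cells and more granule RNA per cell cannot be told apart. An exact two-sided permutation test over the 10 arrays gave p = 0.00952 for every gene of the 10, the smallest value that 4 against 6 arrays allow. Groups without overlap always give this value, so the test adds nothing to the separation stated above. The group means, which set every size below, are differences of log2 intensity, with limma's standard error (SE) and Benjamini-Hochberg adjusted p.

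**Figure D1:**
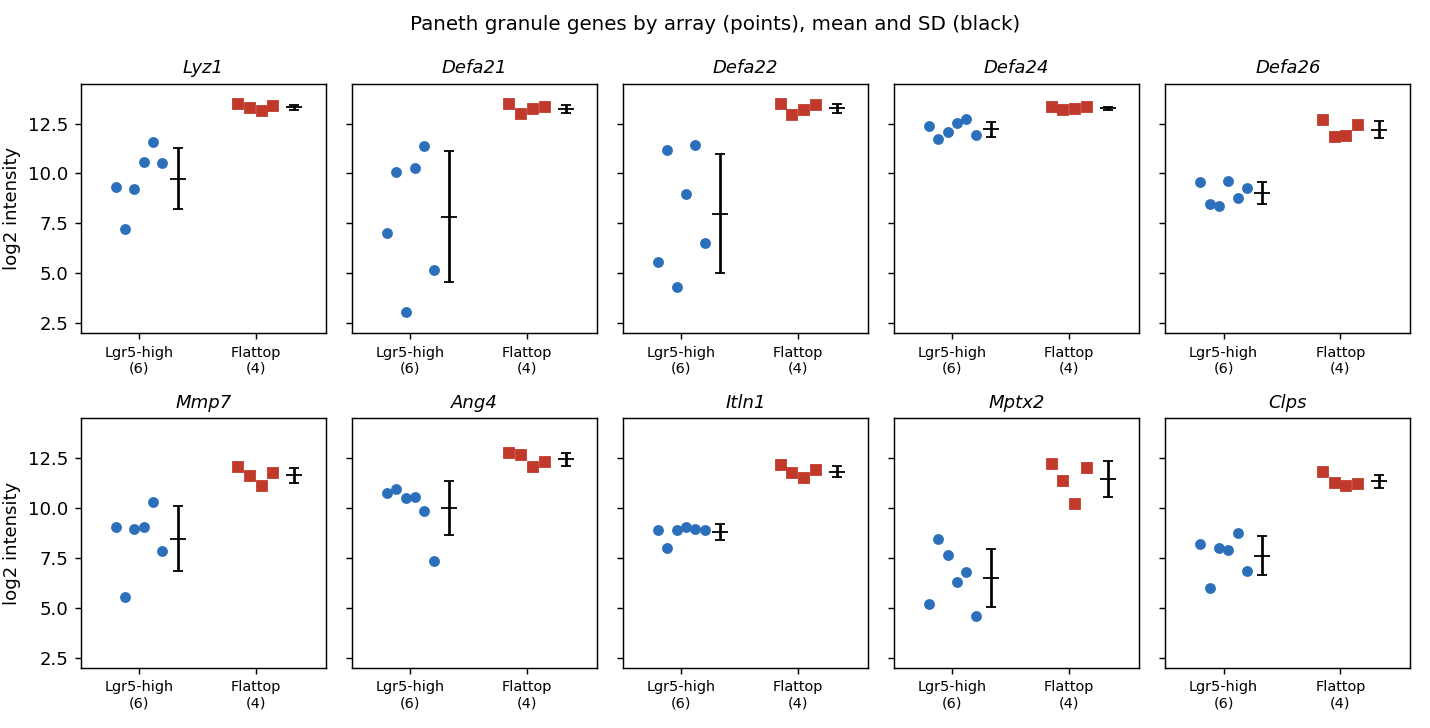
Log2 intensity (vertical axis) of the 10 Paneth granule genes in 6 Lgr5-high arrays (blue circles) and 4 Flattop arrays (red squares), with the group mean and SD in black. Every Flattop point lies above every Lgr5-high point of its gene, and the Lgr5-high points of Defa21 and Defa22 span 8.31 and 7.10 log2 units.

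Lyz1 (Entrez gene 17110) encodes the Paneth cell form of lysozyme. It read 13.46, 13.30, 13.13 and 13.36 in Flattop replicates 1 to 4, and in Lgr5-high arrays 7.21 at the lowest, 9.93 at the median and 11.59 at the highest. The Flattop values lay within 0.33 of each other, and the Lgr5-high arrays ranged over 4.37. Means were 13.31 ± 0.14 (SD, n = 4) and 9.74 ± 1.52 (SD, n = 6), a difference of 3.57 (SE 0.68, limma adjusted p = 0.0377), or 11.8-fold. The call held without Lgr5-high replicate 2 or 5 and was lost when any of the other 8 arrays was left out alone (limma adjusted p 0.0619 to 0.109), with differences of 3.06 to 3.94 over all 10. Its relative Lyz2, the lysozyme of macrophages and other myeloid cells, read 4.04, 4.92, 4.55 and 5.94 in Flattop and at most 4.02 in Lgr5-high arrays, and its difference of 1.04 did not pass (limma adjusted p = 0.236).

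Mmp7 (Entrez gene 17393), the protease that activates alpha-defensin precursors in the mouse, read 12.06, 11.61, 11.13 and 11.76 in Flattop. The Lgr5-high arrays gave 5.57 at the lowest, 8.99 at the median and 10.33 at the highest. Replicate 2 was the low array, and the next lowest read 7.87. Mmp7 was 3.17 higher in Flattop (SE 0.73), short of the threshold (limma adjusted p = 0.0934). Without Lgr5-high replicate 2 it was 2.59 and passed (adjusted p = 0.0250). A second, dimmer Mmp7 probe set had means of 6.04 ± 0.20 (SD, n = 4) and 5.12 ± 0.45 (SD, n = 6), again with no overlap between the groups, and a difference of 0.92 (SE 0.23, limma adjusted p = 0.127 with every single-symbol probe set tested). With the mean of both probe sets the difference was 2.05 and passed (limma adjusted p = 0.0472).

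The 4 alpha-defensin genes fell into different patterns. Defa26 (Entrez gene 626708) read 12.68, 11.83, 11.88 and 12.41 in Flattop and between 8.38 and 9.62 in Lgr5-high arrays, with a median of 9.02. Its SDs were 0.42 in Flattop (n = 4) and 0.55 in Lgr5-high arrays (n = 6). It rose by 3.19 (SE 0.30, limma adjusted p = 0.000405), a 9.14-fold difference, and passed without any single array.

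Defa24 (Entrez gene 503491) was already bright in the Lgr5-high arrays, from 11.71 to 12.71 with a median of 12.23. In Flattop it read 13.34, 13.18, 13.24 and 13.31, which leaves less than 1 log2 unit to the highest value on any array (14.12). Its rise of 1.05 (SE 0.19, limma adjusted p = 0.0319) was the smallest of the 10. The call held without Lgr5-high replicate 2, 4 or 5 and was lost without any of the other 7 arrays (limma adjusted p 0.0549 to 0.0924).

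Defa21 (Entrez gene 66298) and Defa22 (Entrez gene 382059) moved together across arrays. Defa21 read 13.47, 12.96, 13.21 and 13.31 in Flattop, and 7.01, 10.07, 3.07, 10.26, 11.38 and 5.15 in Lgr5-high replicates 1 to 6. Defa22 read 13.46, 12.95, 13.18 and 13.44 in Flattop, and 5.54, 11.19, 4.31, 8.96, 11.41 and 6.51 in the same Lgr5-high arrays. Lgr5-high replicates 2, 4 and 5 were thus high for both, and replicates 1, 3 and 6 low. In replicate 3, Defa21 and Defa22 lay under the 95th percentile of the receptor genes on that array (5.25), as did Defa21 in replicate 6. The differences of 5.41 (SE 1.46) and 5.27 (SE 1.32) were the largest of the 10 and did not pass (limma adjusted p = 0.172 and 0.131). The SDs were 3.29 and 2.99 in Lgr5-high (n = 6) and 0.21 and 0.24 in Flattop (n = 4). Neither passed when any single array was left out.

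**Figure D2:**
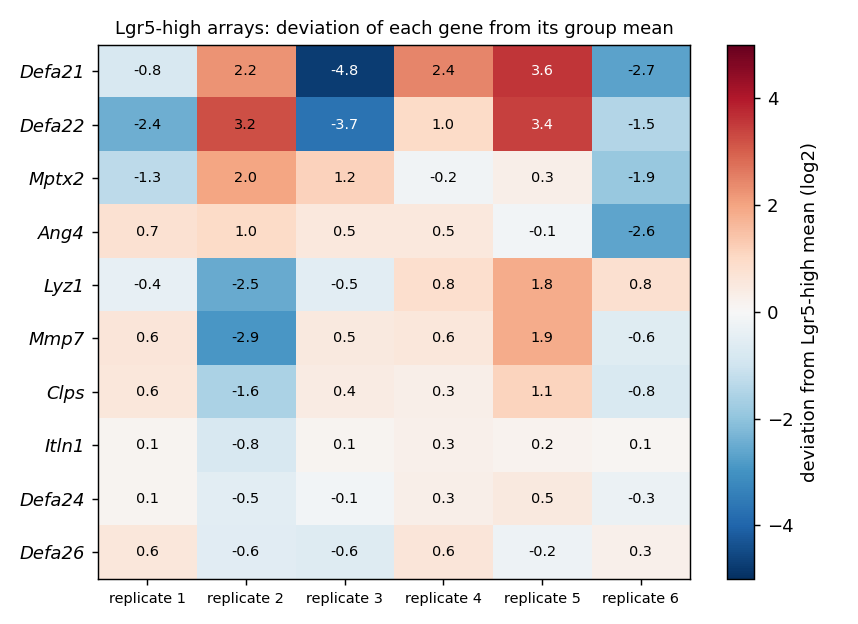
Deviation of each gene (rows) from its own Lgr5-high mean, in log2 units, on the 6 Lgr5-high arrays (columns, red above and blue below the mean). Defa21 and Defa22 share their high and low arrays, replicate 2 is low for Lyz1, Mmp7 and Clps, and replicate 6 is low for Ang4 (7.365 against 9.88 or more elsewhere).

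Ang4 (Entrez gene 219033), a secreted ribonuclease with microbicidal activity, read 12.78, 12.66, 12.07 and 12.33 in Flattop and 7.365 at the lowest, 10.53 at the median and 10.96 at the highest in Lgr5-high arrays. A single array set most of the Lgr5-high spread: replicate 6 read 7.365, and the other 5 lay between 9.88 and 10.96. The difference of 2.46 (SE 0.61) did not pass (limma adjusted p = 0.126). Without Lgr5-high replicate 6 it was 1.93 and passed (adjusted p = 0.00562). The related ribonuclease genes Ang2 and Ang6 were dim in both groups, with differences of -0.17 and -0.10.

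Itln1 (Entrez gene 16429) encodes intelectin, a lectin that binds microbial sugars and is made by Paneth and goblet cells. It read 12.15, 11.76, 11.49 and 11.925 in Flattop, and 7.99 at the lowest, 8.93 at the median and 9.05 at the highest in Lgr5-high arrays. It had the smallest adjusted p of the 10, with a rise of 3.04 (SE 0.22, limma adjusted p = 0.000113), or 8.21-fold. Itln1 passed under every alternative run, including both ranges of title numbers taken alone.

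Mptx2 (Entrez gene 100504232), a pentraxin-type lectin of mouse Paneth cells, read 12.21, 11.36, 10.20 and 12.02 in Flattop and 4.60, 6.56 and 8.48 at the lowest, median and highest Lgr5-high array. Flattop replicate 3 was lowest of the 4 Flattop arrays, and Lgr5-high replicate 6, at 4.60, lay under the receptor genes' 95th percentile. Mptx2 rose by 4.94 (SE 0.72, limma adjusted p = 0.00844), a 30.7-fold difference on a low Lgr5-high level. Its relative Mptx1 read 10.40, 9.43, 9.03 and 9.04 in Flattop and between 4.28 and 8.20 in Lgr5-high arrays, without overlap. The Mptx1 difference of 3.52 (SE 0.72) did not pass (limma adjusted p = 0.0551) and passed without Lgr5-high replicate 4 (3.97, adjusted p = 0.0151) and without Lgr5-high replicate 1 (3.82, adjusted p = 0.0476).

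Clps (Entrez gene 109791) encodes colipase, the cofactor of pancreatic lipase and its relatives, and is also expressed in Paneth cells. It read 11.84, 11.24, 11.09 and 11.20 in Flattop and 6.02, 7.97 and 8.75 at the lowest, median and highest Lgr5-high array. The groups were separated by 2.34 log2 units. Clps rose by 3.72 (SE 0.46, limma adjusted p = 0.00304), or 13.2-fold, and passed without any single array. Pnliprp2, a lipase of the same pathway, read 11.76, 11.80, 9.16 and 10.70 in Flattop and between 5.62 and 8.34 in Lgr5-high arrays, and rose by 3.85 (SE 0.60, limma adjusted p = 0.0121). That call ended when Flattop replicate 2 was left out (3.53, limma adjusted p = 0.0515). Pancreatic acinar markers overlapped between the groups. Of 8 measured acinar genes, among them the carboxypeptidase Cpa1 and the chymotrypsinogen Ctrb1, 0 passed limma and 0 reached an unadjusted p of 0.05, and the mean of the list ran from 4.23 to 4.58 in Flattop and from 4.27 to 4.56 in Lgr5-high arrays. Ctrb1 and the trypsinogen Try4 lay above the receptor genes' 95th percentile on all arrays, Ctrb1 at 5.54 to 6.26 in Flattop and 5.58 to 5.89 in Lgr5-high, and Try4 at 5.51 to 5.97 and 5.56 to 5.93.

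Further alpha-defensin genes were also higher in Flattop. Of 9 with a single-symbol probe set, 5 rose (limma, 0.902% of all genes called higher) and 4 did not pass, with a median difference of 1.97. The 5 are all coding genes. Defa40 rose by 1.97 (SE 0.17, adjusted p = 0.00032), Defa41 by 2.22 (SE 0.30), Defa33 by 2.39 (SE 0.34), Defa35 by 2.55 (SE 0.37) and Defa39 by 2.13 (SE 0.37, adjusted p = 0.0250). Defa35 read 12.28, 12.09, 12.155 and 12.16 in Flattop and 8.22 to 10.44 in Lgr5-high arrays. Its promoter matched those of Defa21 and Defa22 at 214 of 250 bases (85.6%), a share that counts unaligned ends as mismatches. The Defa39 call was lost without any Flattop array and without Lgr5-high replicates 3 or 6 (adjusted p 0.0558 to 0.0756). Defa34 and the pseudogene Defa-ps1 differed by 0.96 and 0.95 without overlap and did not pass (limma adjusted p = 0.0660 and 0.184). The pseudogenes Defa-ps12 and Defa-ps13 were dim on all arrays, at most 3.48, with differences of -0.01 and -0.17.

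Another 9 probe sets are annotated to 2 to 5 alpha-defensin copies each and so name no single gene. Their mean levels in Lgr5-high arrays ran from 7.93 to 13.28, and 8 of the 9 did not overlap between the groups, with Flattop higher, as in 1.42% of all probe sets. Differences lay between 0.43 and 1.83 with a median of 1.17. When all 41345 probe sets were tested, 2 of the 9 rose (adjusted p = 0.0135 and 0.0137, 0.389% of all probe sets called higher). The brightest of them read 13.00 to 13.45 in Lgr5-high and 13.75 to 13.95 in Flattop arrays, next to array maxima of 13.93 to 14.12. Its difference was 0.59 (SE 0.12, limma adjusted p = 0.0856). Some alpha-defensin probe sets were thus near the top of the scale in both groups, and how far this limited their differences was not tested.

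**Figure D3:**
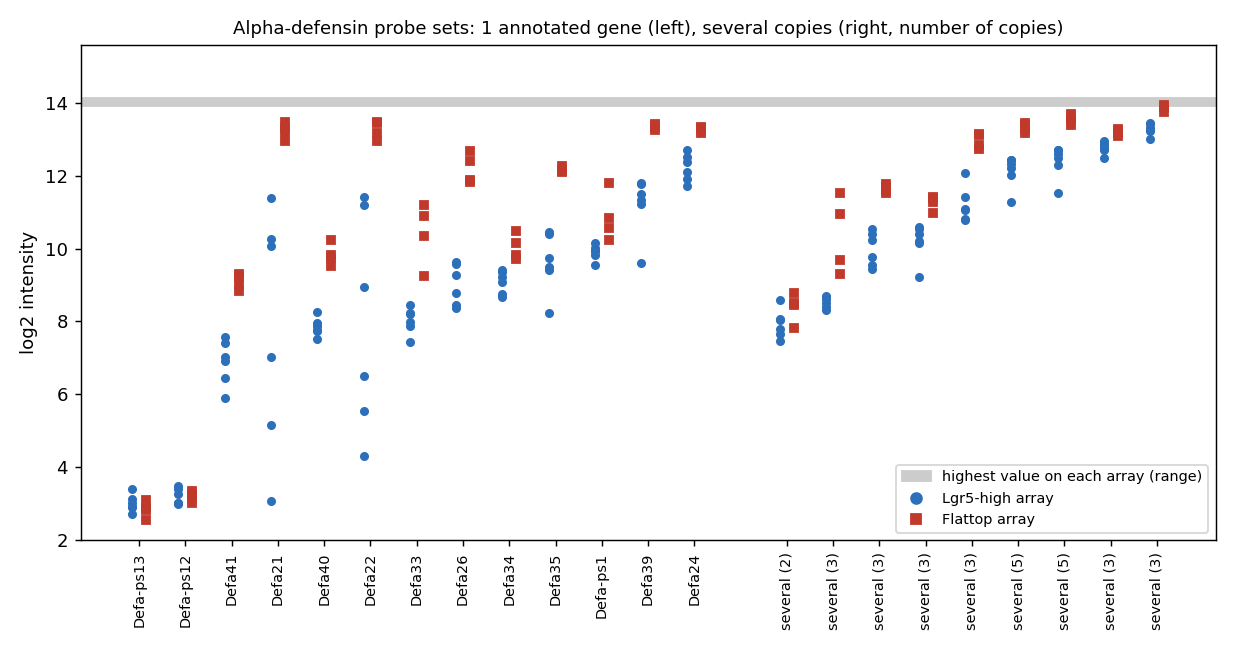
Log2 intensity (vertical axis) on 6 Lgr5-high (blue) and 4 Flattop arrays (red) for the alpha-defensin probe sets with 1 annotated gene (left) and with several copies (right, number of copies in brackets), each ordered by its Lgr5-high mean. The grey band is the range of the highest value on each array (13.93 to 14.12), and the Flattop points of the brightest set reach into it.

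Most paralogues and partners of the 10 genes did not pass. Of 23 measured, 1 rose, Pnliprp2, and 22 did not pass, with a median difference of -0.08. When the 40% of genes with the lowest means were left out, 13 of the 23 remained. The median thus includes dim genes and does not describe the brighter relatives alone. At an unadjusted p under 0.05, 4 were higher (Pnliprp2, Mptx1, Lyz2 and Pla2g2a) and 1 was lower, Nptx1 (-0.39, SE 0.17, limma adjusted p = 0.488). The list also holds 7 other matrix metalloproteinases and 3 of their inhibitors, whose differences lay between -0.24 and 0.42 and none of which passed. Pla2g2a, a secreted phospholipase of Paneth granules whose gene is disrupted in C57BL/6 mice, read 9.67, 8.57, 4.89 and 6.80 in Flattop and 4.94 to 6.61 in Lgr5-high arrays. Its groups overlapped, and the difference of 1.91 (SE 0.78) did not pass (limma adjusted p = 0.457). Flattop arrays differed more among themselves for Pla2g2a (SD 2.09, n = 4) than for any of the 10 granule genes.

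**Figure D4:**
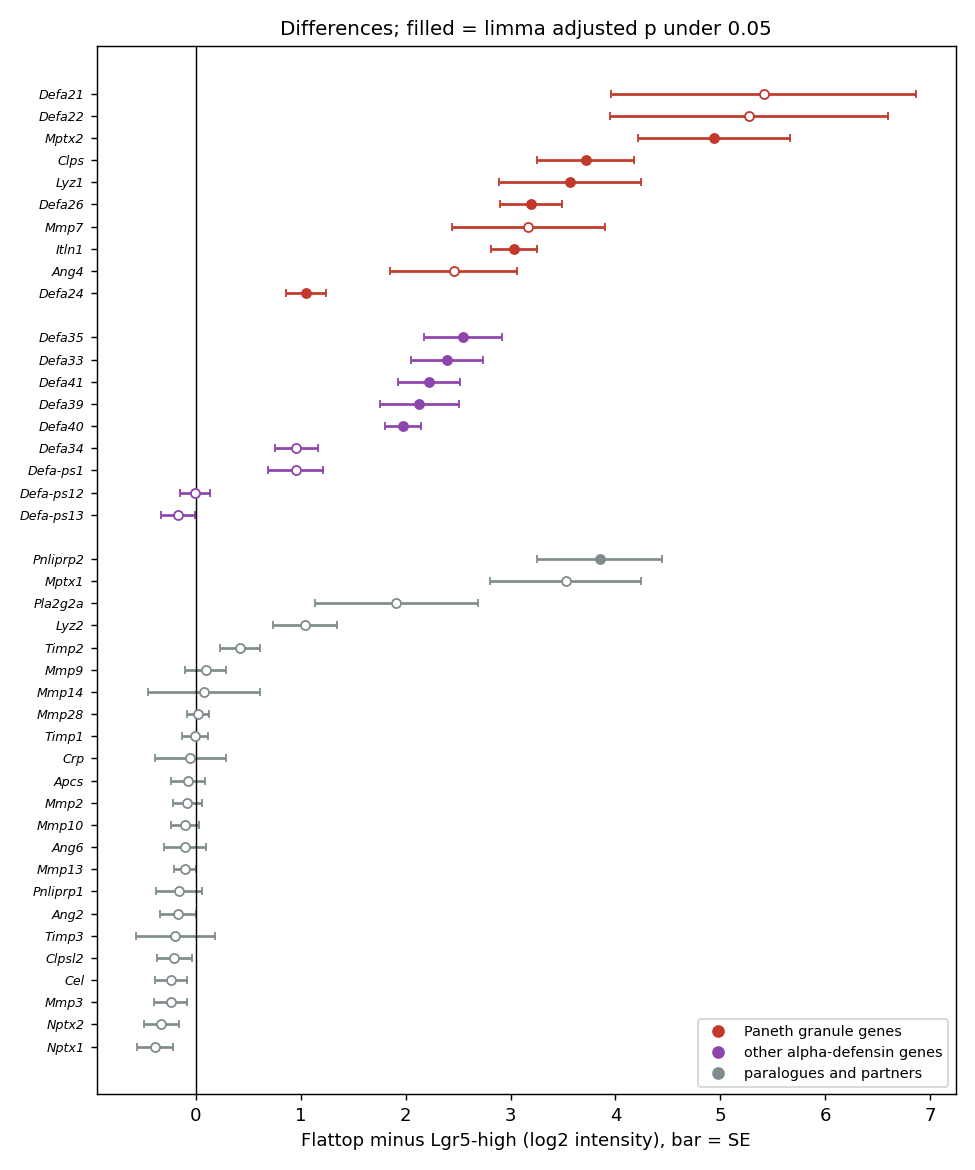
Flattop minus Lgr5-high difference in log2 intensity (horizontal axis, bars are SE) for the 10 Paneth granule genes (red), 9 other alpha-defensin genes (purple) and 23 paralogues and partners (grey). Filled points passed a limma adjusted p of 0.05, which 6, 5 and 1 genes of these lists did.

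Genes of Paneth cell identity and niche function gave smaller differences. Of 20 measured, 2 rose and 18 did not pass, with a median difference of 0.14 and 4 genes without overlap. Over all genes 0.902% were called higher and 2.01% did not overlap with Flattop higher. The receptor kinase Kit rose by 1.002 (SE 0.17, limma adjusted p = 0.0216) and the secreted protease Habp2 by 2.38 (SE 0.41, limma adjusted p = 0.0228). Both calls ended without Flattop replicate 2 and without Flattop replicate 4 (adjusted p 0.0619 to 0.0789). Kit was also lost without Flattop replicate 3 (0.0507) and with a trended and robust variance prior (limma adjusted p = 0.0949), and Habp2 without Flattop replicate 1 or any of Lgr5-high replicates 2 to 6 (0.0530 to 0.0643). Kit is also a marker of mast cells, and 2 mast cell proteases of the same family, Mcpt1 and Mcpt2, rose by 5.08 and 3.22 (limma adjusted p = 1e-06 and 0.00464). The list's other member, the mast cell carboxypeptidase Cpa3, read 3.56 to 4.27 in Flattop and 3.38 to 3.98 in Lgr5-high and did not pass (0.34, limma adjusted p = 0.569). The part of mast cells in the Kit difference was not tested. The stress protein Nupr1 was 1.78 higher (SE 0.37, limma adjusted p = 0.0592) and passed without Flattop replicate 1 (1.33, adjusted p = 0.0335) or Flattop replicate 3 (2.08, adjusted p = 0.0239). Spdef, a transcription factor of secretory cell maturation, differed by 0.88 (limma adjusted p = 0.112), and Atoh1, the factor that starts the secretory lineage, by 1.80 (limma adjusted p = 0.309). The Wnt ligand Wnt3 and the transcription factor Sox9 were at 0.14 and -0.49, and neither passed. Wnt3 read 4.12 to 4.86 in Flattop and 4.07 to 4.60 in Lgr5-high arrays. Egf, of the same list, read 3.58 to 4.41 and 3.84 to 4.48. On every array both lay within the dim range of the olfactory and vomeronasal receptor genes. Values this dim cannot decide whether Wnt3 or Egf differed between the groups.

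Within Flattop, replicate 1 was highest for all 10 genes. Replicate 2 was lowest for the 4 alpha-defensins, and replicate 3 for the other 6 genes. The mean over the 10 genes was 12.74, 12.28, 12.06 and 12.51 in Flattop replicates 1 to 4.

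Among Lgr5-high arrays no single one was highest for all. Replicate 5 was highest for 6 genes (Lyz1, Defa21, Defa22, Defa24, Mmp7 and Clps), and replicate 2 was lowest for 5 (Lyz1, Defa24, Mmp7, Itln1 and Clps) but highest for Ang4 and Mptx2. Means over the 10 genes ran from 7.90 in replicate 6 to 10.06 in replicate 5. SDs of the 10 genes were 0.378 to 3.29 in Lgr5-high (n = 6) and 0.073 to 0.909 in Flattop (n = 4), where Lyz1, Defa21, Defa22 and Defa24 lay near the highest value of the arrays. The Lgr5-high SD was 0.998 or more for Lyz1, Defa21, Defa22, Mmp7, Ang4, Mptx2 and Clps, 0.55 for Defa26, 0.398 for Itln1 and 0.378 for Defa24.

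The most alike pair in absolute terms was Defa24 and Itln1, whose deviations from the group means differed by a root mean square of 0.24 over the 10 arrays. This measure depends on spread, and Defa24 and Itln1 had the smallest Lgr5-high SDs. By correlation of the same deviations, Mmp7 and Clps were closest (0.966), followed by Defa21 and Defa22 (0.920). Defa24 and Itln1 correlated at 0.670. Defa21 and Defa22 differed by 0.91 from each other and Defa21 by at least 2.22 from each of the other 8 genes. Among 18694 other named genes, the 5 whose deviations were closest to the mean deviation of the 10 were Racgap1, Atg7, Dennd1a, Nup153 and Zfp101, at root mean square differences of 0.23 to 0.33. None of these 5 passed between the groups (limma adjusted p 0.612 to 0.998). For scale, the mean deviation of the 10 had a root mean square of 0.60. The median difference from it over the ranked genes was 0.68. Whether the 5 are closer than the best of so many genes would be by chance was not tested.

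The numbers in the sample titles fall into 2 ranges, 1 to 8 (Flattop replicates 1 and 2, Lgr5-high replicates 1 to 3) and 38 to 46 (Flattop replicates 3 and 4, Lgr5-high replicates 4 to 6). What they mark is not given in the sources used here. All 10 genes were higher in Flattop within each range, and their median difference was 4.05 in the first range and 2.93 in the second. With these few arrays, 2 of the 10 passed limma in each range (Ang4 and Itln1 in the first, Defa26 and Itln1 in the second), where 0.347% and 0.338% of all genes were called higher. The interaction of group and title range was called for 0 of the 10 genes in limma (0.00902% of all genes), and 1 reached an unadjusted p under 0.05 (7.39% of all genes did). That gene was Lyz1, with differences of 4.79 and 2.34 in the 2 ranges (interaction -2.45, SE 0.85, limma adjusted p = 0.590). Its Lgr5-high arrays read 9.33, 7.21 and 9.22 in the first range and 10.57, 11.59 and 10.54 in the second.

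Other cell types moved in the same arrays. Lymphocyte genes rose most, 11 of 12 in limma, with list means of 8.35, 8.92, 10.55 and 10.07 in Flattop replicates 1 to 4 and 4.44 to 4.89 in Lgr5-high arrays. Flattop replicate 1, highest for every granule gene, was the lowest of the 4 for lymphocyte genes, and replicate 3, lowest for 6 granule genes, the highest. Goblet cell genes, 6 of 8 called higher, had list means of 11.65 to 12.25 in Flattop and 9.01 to 10.51 in Lgr5-high arrays, and enterocyte genes, 5 of 8 called higher, 9.72 to 10.99 and 6.05 to 7.03. Enteroendocrine genes, 4 of 8 called higher, had list means of 8.50 to 9.23 and 6.92 to 7.56. Of 8 stem cell genes 0 passed and 6 were lower at an unadjusted limma p under 0.05, with list means of 7.45 to 8.88 in Flattop and 8.86 to 9.34 in Lgr5-high arrays. Flattop replicate 3 was also the lowest for the goblet, enterocyte, enteroendocrine and stem list means. Flattop replicate 1 was also the highest for the goblet and enteroendocrine list means, so this order was not particular to the granule genes. Macrophage genes, set beside Lyz1 and Lyz2, overlapped between the groups, with 0 of 8 called in limma, of which 2 were lower and 0 higher before adjustment, and list means of 4.90 to 5.02 and 4.72 to 5.20. The brightest of them, Cx3cr1, read 6.08 to 6.96 in Flattop and 6.66 to 7.29 in Lgr5-high, and Cd68 read 5.62 to 6.43 and 4.78 to 7.82. The part of the other cell types in the granule gene differences was not tested.

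**Figure D5:**
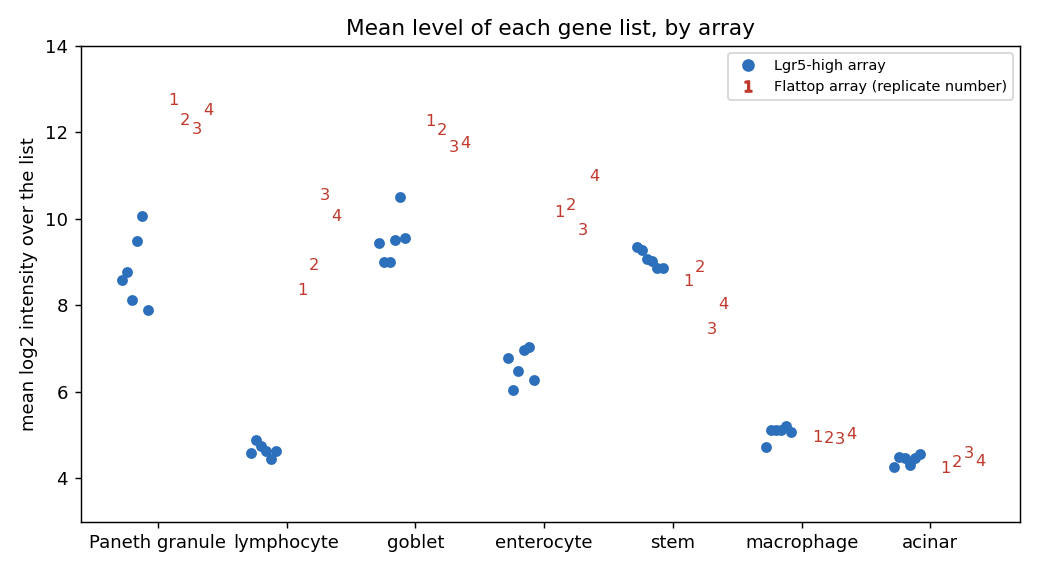
Mean log2 intensity over each gene list (vertical axis) on the 6 Lgr5-high arrays (blue circles) and on the 4 Flattop arrays (red digits, the replicate number). Paneth granule means are 12.06 to 12.74 in Flattop and 7.90 to 10.06 in Lgr5-high arrays, while the macrophage and acinar means stay between 4.23 and 5.20 in both groups.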

How the data were processed

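The authors deposited log2 intensities per probe set, for which RMA (background correction, quantile normalization and probe summary) and oligo 1.38.0 are named, per the submitters' processing notes. Genome build and any later filter are not stated there, and scanner files were not used. Per the labels' protocols, RNA of sorted cells was amplified before labelling. Values ran from 2.01 to 14.12 with none missing. RMA makes the distributions of arrays alike, so a shift common to most genes would not show.

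Of 41345 probe sets, 23521 had 1 gene symbol, 1814 several and 16010 none. Through Entrez numbers, 23328 matched RefSeq genes of GRCm38.p6 and 0 symbols changed. For each of 22180 genes the brightest probe set by mean over the 10 arrays was kept. No dim gene was removed.

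Flattop was set against Lgr5-high in limma 3.58.1 under R 4.3.3 (lmFit, eBayes), and two-sided p-values of all genes together were adjusted by Benjamini-Hochberg and called at 0.05. Single genes were also compared by an exact permutation test (scipy 1.17.1). The method was tested on simulated data. Precision is limited by the number of arrays. The genes described and all lists were chosen with earlier results of these data known. Genes named from other lists were up to 5 of each with the smallest p, plus genes whose call or spread is discussed, such as Wnt3, Sox9, Ang2, Ang6, Mcpt1, Mcpt2, Cpa1, Cpa3, Ctrb1, Try4, Cx3cr1 and Cd68, chosen after their values were seen. Promoters are from RefSeq, with identity from a global alignment without end gap cost, as matching bases out of 250. Plots used matplotlib 3.10.9.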

Additional observations from a re-analysis of the deposited data

Results flagged for a closer look

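In 3 of 38 groups of values (10 granule genes and 9 other alpha-defensin genes, in Flattop and in Lgr5-high) a single array lay far from the rest by Dixon's test at the 95% level, where chance alone gives about 1 in 20. All 3 were low Lgr5-high arrays. Ang4 read 7.365 in replicate 6 and 9.88 to 10.96 in the other 5. Itln1 read 7.987 in replicate 2 and 8.91 to 9.05 in the others. Defa39 read 9.599 in replicate 2 and 11.23 to 11.80 in the others.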

How the results depend on the processing

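Of the 10 Paneth granule genes 6 were called, and all 10 stayed higher in Flattop under every alternative run. The count was 2 within titles 1 to 8 alone, 2 within titles 38 to 46 alone and 4 to 7 with single arrays left out, while the median difference was 3.07 to 3.74 with single arrays left out. The count of 5 among other alpha-defensin genes was 1 within titles 1 to 8, 0 within titles 38 to 46 (limma, 6 at an unadjusted p under 0.05) and 4 to 5 with single arrays left out. Among paralogues and partners the count of 1 was 2 with dim genes left out, 2 with a trended and robust prior, 0 within titles 38 to 46 (limma, 5 unadjusted) and 0 to 2 with single arrays left out (0 without Flattop replicate 2, 4 unadjusted). Among identity genes the count of 2 was 1 within titles 1 to 8, 0 within titles 38 to 46 (limma, 6 unadjusted) and 0 to 2 with single arrays left out (0 without Flattop replicate 2 or 4, 6 unadjusted in each). The ranges hold fewer arrays, and the cause of the other changes was not tested. Of 22 alternatives fitted with limma, Itln1 kept its call in 22, Defa26 in 21, Clps in 20, Mptx2 in 19, Defa24 in 11 and Lyz1 in 10. Chosen after seeing the data, testing all probe sets ended the calls of Lyz1, Defa24, Defa39 and Habp2 (limma adjusted p = 0.0856, 0.0672, 0.0575 and 0.0532). The interaction count, also checked after seeing the data, stayed at 0 with a second quantile normalization and with the trended and robust prior (limma, 1 unadjusted in each). Second quantile normalization moved the median of all genes from -0.06 to -0.03.

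Arrays of the same number did not pair: deviations from the group means correlated across genes at 0.30, -0.21, -0.01 and 0.03 for numbers 1 to 4, and 1 of 4 Flattop arrays correlated best with its own number. With the replicate number as a block, 4 granule genes, 2 other alpha-defensin genes, 0 paralogues and partners (limma, 3 unadjusted) and 0 identity genes (6 unadjusted) passed. Lgr5-high arrays numbered above 4 have no Flattop array of the same number, so the differences in this fit rest on numbers 1 to 4 alone. Of all genes, 0.257% were called higher with this block. It ended the calls of Lyz1, Defa24 and Mptx2 (limma adjusted p = 0.0653, 0.131 and 0.181). Ang4, not called in the main fit, passed with it (difference 1.77, limma adjusted p = 0.0324). The low Lgr5-high replicate 6 of Ang4 does not contribute to that difference.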
